A study of Mus musculus with 6 samples.

Results

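Endoplasmic reticulum (ER) chaperones were read in bulk RNA-Seq of mouse liver after an acetaminophen (APAP) overdose. The members are 10 genes, chosen by gene name from the 34745 genes of the deposited table as chaperones of the unfolded protein response and targets of the transcription factors XBP1 and ATF6. They are Hspa5, Hsp90b1, Calr, Pdia3, Pdia4, Dnajb9, Sdf2l1, Creld2, Xbp1 and Herpud1. Each name occurred in 1 row, and all 10 passed the filter on low counts. The samples are livers of wild-type mice, described in the study's methods as adult male C57BL/6J mice. All mice were fasted for 12 hours before an intraperitoneal injection, of which the treated group received APAP at 300 mg/kg and was killed 12 hours later. The control group received saline. The labels list 3 samples per group, and the table used here holds raw read counts of 2 APAP libraries (APAP1 and APAP3) and 3 further libraries named WT1, WT2 and WT3. Since only APAP columns are named for a treatment, WT1 to WT3 were taken to be the saline livers. APAP2 was not analysed here.

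The total count was between 13378445 and 15976339 per library, so that every member was counted from at least 176 reads. Sex-linked genes stood apart between the groups. Xist was at 0.764 and 1.73 CPM (read counts scaled to a common library size) after APAP and at 290 to 914 CPM after saline. Ddx3y, on the Y chromosome, was at 79.0 and 61.7 CPM after APAP and had at most 1 read in any saline library. High Xist with at most 1 read of Ddx3y goes against the description of the mice as male for all saline libraries. Sex-linked expression and treatment therefore cannot be told apart in any comparison given here. The labels do not say whether the libraries of a group came from separate mice, and the p-values measure only the spread between these libraries.

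Secreted and membrane proteins fold in the ER lumen, where BiP, the HSP70 of this compartment, GRP94, its HSP90, the lectin chaperones calreticulin and calnexin and the protein disulfide isomerases act on them. When unfolded proteins accumulate, the sensors IRE1, PERK and ATF6 start the unfolded protein response. IRE1 splices the Xbp1 mRNA, and the resulting factor, like the cleaved form of ATF6, activates genes of folding and of ER-associated degradation (ERAD). Hepatocytes secrete most plasma proteins and carry a large ER, which also holds the cytochrome P450 enzymes that turn APAP into its reactive metabolite.

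Promoters of these genes are known for the ER stress response element (ERSE), at which NF-Y and ATF6 bind. Windows from 250 bases before to 50 bases after the transcription start were taken from RefSeq (build GRCm38.p6), and all 10 members had an entry. They were searched on both strands for CCAAT and CCACG with 9 bases of any kind between them (ERSE), ATTGG and CCACG with 1 base between them (ERSE-II) and TGACGTGG (the core of the XBP1-bound element, UPRE). All 3 motifs contain CCACG or its complement. ERSE was found in the windows of Hspa5, Hsp90b1, Calr and Creld2, and ERSE-II in that of Herpud1. Among all 32851 windows, ERSE occurred in 0.119%, ERSE-II in 0.0365% and the UPRE core in 0.676%. The member windows held no UPRE core, and the other 5 members held none of the 3 motifs in full, among them Sdf2l1, the only member that passed the adjusted test described below. The last 30 bases of the window occur in an annotated transcript of the gene for 9 members. They do not for Pdia4, whose lack of a motif is therefore less certain. The 5 windows with a match are shown for the position of the element, and that of Sdf2l1 for the contrast. They are written 5′ to 3′ on the strand of the gene, with the fixed letters of each match in capitals.
Hspa5, chr2:34771840-34772139, plus strand, ERSE starting 65 bases before the transcription start: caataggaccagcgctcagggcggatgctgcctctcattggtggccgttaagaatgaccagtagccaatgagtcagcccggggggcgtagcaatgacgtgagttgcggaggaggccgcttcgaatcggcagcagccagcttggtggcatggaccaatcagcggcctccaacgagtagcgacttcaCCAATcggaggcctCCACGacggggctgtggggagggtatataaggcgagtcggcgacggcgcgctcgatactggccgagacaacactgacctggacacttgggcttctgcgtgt
Hsp90b1, chr10:86705395-86705694, minus strand, ERSE starting 212 bases before the start and, in reverse, 107 bases before it: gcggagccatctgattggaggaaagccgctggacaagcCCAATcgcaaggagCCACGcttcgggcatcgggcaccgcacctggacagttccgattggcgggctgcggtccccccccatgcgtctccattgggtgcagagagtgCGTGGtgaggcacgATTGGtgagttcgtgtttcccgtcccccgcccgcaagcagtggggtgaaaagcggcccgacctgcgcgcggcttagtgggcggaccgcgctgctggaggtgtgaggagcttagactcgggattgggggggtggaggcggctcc
Calr, chr8:84846882-84847181, minus strand, ERSE in reverse starting 162 bases before the start: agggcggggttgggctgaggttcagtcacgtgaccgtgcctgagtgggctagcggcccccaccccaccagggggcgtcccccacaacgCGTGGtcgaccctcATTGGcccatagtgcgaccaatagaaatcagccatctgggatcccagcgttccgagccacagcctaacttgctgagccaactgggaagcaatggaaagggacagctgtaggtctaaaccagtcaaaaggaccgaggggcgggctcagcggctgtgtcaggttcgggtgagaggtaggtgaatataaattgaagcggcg
Creld2, chr15:88819396-88819695, plus strand, ERSE in reverse starting 126 bases before the start: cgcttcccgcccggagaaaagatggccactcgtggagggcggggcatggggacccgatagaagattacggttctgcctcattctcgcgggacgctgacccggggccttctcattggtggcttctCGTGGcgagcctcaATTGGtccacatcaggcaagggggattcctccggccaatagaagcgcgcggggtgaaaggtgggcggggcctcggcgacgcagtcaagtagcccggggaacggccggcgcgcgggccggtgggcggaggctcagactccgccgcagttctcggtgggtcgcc
Herpud1, chr8:94386179-94386478, plus strand, ERSE-II starting 52 bases before the start: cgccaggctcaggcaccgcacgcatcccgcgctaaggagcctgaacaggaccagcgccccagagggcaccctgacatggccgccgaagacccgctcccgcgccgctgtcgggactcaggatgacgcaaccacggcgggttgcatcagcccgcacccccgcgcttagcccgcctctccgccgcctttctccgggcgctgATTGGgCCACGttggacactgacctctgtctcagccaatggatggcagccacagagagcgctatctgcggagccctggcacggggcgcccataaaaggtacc
Sdf2l1, chr16:17132334-17132633, minus strand, no full match: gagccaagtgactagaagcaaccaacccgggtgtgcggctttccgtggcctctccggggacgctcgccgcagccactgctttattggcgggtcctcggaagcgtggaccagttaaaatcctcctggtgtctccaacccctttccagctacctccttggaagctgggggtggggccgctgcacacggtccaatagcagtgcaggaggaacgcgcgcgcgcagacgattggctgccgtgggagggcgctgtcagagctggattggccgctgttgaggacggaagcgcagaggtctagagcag
Sdf2l1 held CCACG or its complement 3 times, which by itself was present in 32.8% of all windows. A match is a string of letters, and no factor binding was measured.

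To compare levels between the members, CPM was divided by the length of the merged exons (CPM per kb). In saline livers Herpud1 had the highest mean level, 223 ± 116 CPM per kb (SD, n = 3), followed by Calr at 218 ± 38.1, Hsp90b1 at 169 ± 12.0 and Hspa5 at 156 ± 29.1. Pdia3 came next at 121 ± 21.8. Herpud1 overlapped with Calr, and Hspa5 with both Hsp90b1 and Pdia3, so that these neighbours did not differ beyond their spread. Every saline library of Calr was above every one of Hsp90b1, and every one of Pdia3 above every one of Pdia4. Pdia4 (75.1 ± 14.4), Xbp1 (52.6 ± 5.60), Dnajb9 (32.7 ± 12.4), Creld2 (22.8 ± 8.28) and Sdf2l1 (12.5 ± 1.51 CPM per kb) kept this order in each of the 3 saline libraries. Sdf2l1 was the least abundant member in all 5 libraries. With APAP, Calr had the highest mean (292 ± 71.0 CPM per kb, SD, n = 2) and Hspa5 was next (247 ± 36.1), but each was the higher of the pair in 1 of the 2 libraries.

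APAP was compared with saline by edgeR's quasi-likelihood test on the raw counts of all genes. Of the 10 members, 9 had a fitted log2 fold change above 0, against 52% of the 13734 genes tested. The members' median was 0.58 on the log2 scale, beside 0.03 for all tested genes. The members were chosen with earlier results of these data known and were read from the same libraries, so that this share and median are descriptive only. Scaling by library size alone moved the median of all tested genes by 0.39 and the share of calls that were higher with APAP from 51.2% to 77.8%. After Benjamini-Hochberg adjustment over all tested genes, 1 member, Sdf2l1, was higher with APAP and none was lower, where 7.23% of all tested genes were called, 3.7% higher and 3.53% lower. With the thresholds of the study's methods, 1.5-fold and P under 0.05 without adjustment, Sdf2l1 and Creld2 were higher, against 12.3% of all tested genes. In 4 members (Hspa5, Xbp1, Sdf2l1 and Creld2) both APAP libraries lay above all saline libraries, and in no member below them, where 24% and 20.1% of all tested genes were apart in these directions. In bulk liver, a changed mix of cell types and a changed amount of RNA per cell cannot be told apart.

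**Figure D1:**
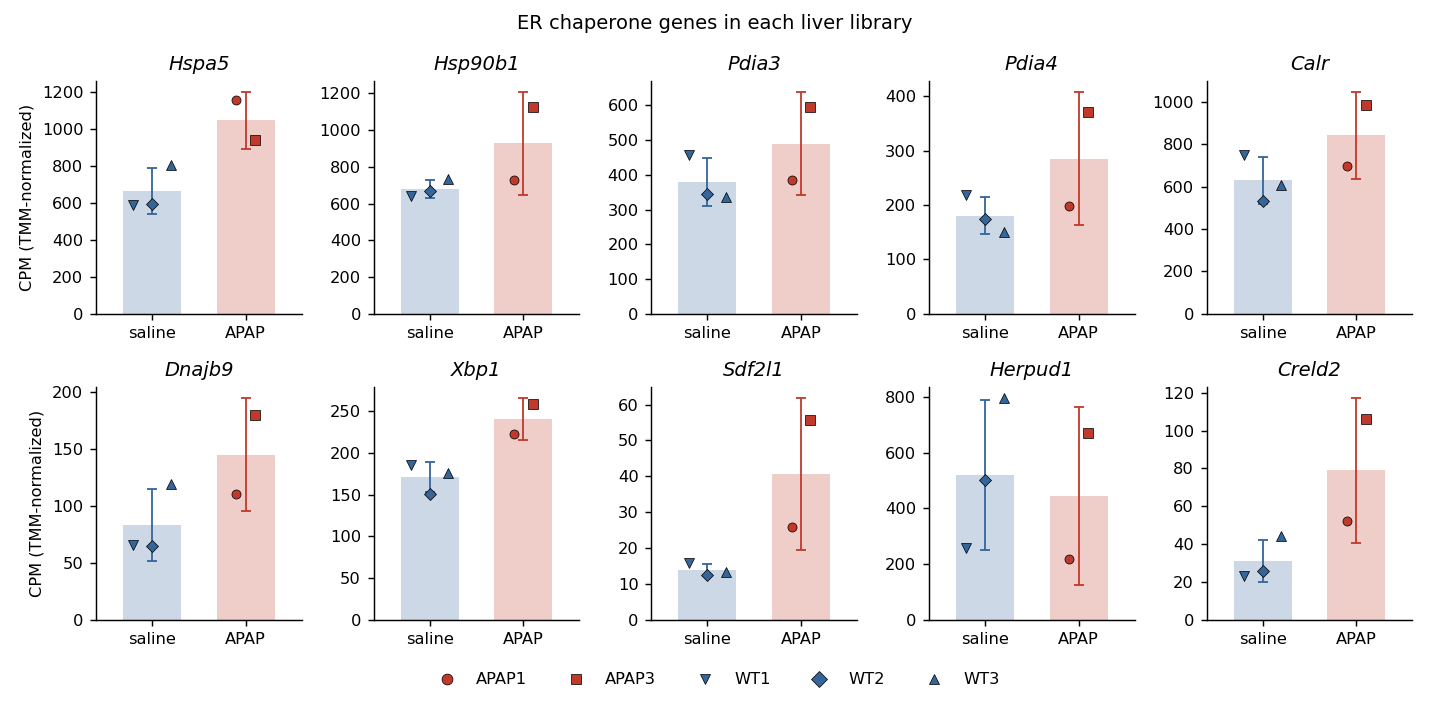
TMM-normalized CPM (y axis, linear from 0) of the 10 ER chaperone genes in each liver library. Bars are group means, error bars the SD (n = 3 saline, n = 2 APAP) and points single libraries. The groups are apart in Hspa5, Xbp1, Sdf2l1 and Creld2 and overlap in the other 6 genes.

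The main lumenal chaperones differed by less than the test could separate. Hspa5, which encodes BiP (ENSMUSG00000026864, chromosome 2, 34771970 to 34777547 in build GRCm38), had 1152 and 936 CPM in APAP1 and APAP3, against 589, 592 and 804 CPM in WT1, WT2 and WT3. Both APAP libraries lay above every saline library, with WT3 the closest. The fitted fold change was 1.58 (log2 0.66, standard error 0.28, 95% interval −0.01 to 1.32, adjusted p = 0.204 by edgeR's quasi-likelihood test). Hsp90b1, which encodes GRP94 (ENSMUSG00000020048, chromosome 10, 86690209 to 86705509), was at 729 and 1125 CPM with APAP, against 641, 666 and 734 CPM with saline. APAP1 lay within the saline range and APAP3 above it, and the log2 fold change was 0.45 (95% interval −0.23 to 1.13, adjusted p = 0.392 from the same test). Of the 50-base words of the Hsp90b1 transcript, 13.8% occur in other annotated transcripts, chiefly of 1810014B01Rik on the opposite strand, so that its count is less certain than those of the other members. Its promoter window held 2 ERSE matches and that of Hspa5 held 1.

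Calreticulin and the disulfide isomerases gave a similar picture. Calr (ENSMUSG00000003814, chromosome 8, 84841850 to 84846934), a lectin chaperone for glycoproteins, was at 696 and 986 CPM with APAP, against 748, 532 and 606 CPM with saline (log2 fold change 0.42, 95% interval −0.27 to 1.11, adjusted p = 0.429 in edgeR's quasi-likelihood fit). Pdia3 (ENSMUSG00000027248, chromosome 2, 121413775 to 121438687), the isomerase that works with calreticulin and calnexin, was at 385 and 595 CPM with APAP, against 458, 344 and 335 CPM with saline (log2 0.37, 95% interval −0.33 to 1.07, adjusted p = 0.490 from the same test). Pdia4 (ENSMUSG00000025823, chromosome 6, 47796141 to 47813430), an isomerase of the same family, was at 199 and 372 CPM with APAP, against 218, 174 and 150 CPM with saline (log2 0.66, 95% interval −0.12 to 1.44, adjusted p = 0.269 from the same test). In all 3 genes APAP3 was above every saline library, APAP1 fell within the saline range, and WT1 was the highest saline library. The membrane-bound counterpart of calreticulin, Canx, was at 218 and 342 CPM with APAP, against 388, 347 and 343 CPM with saline (log2 −0.36, adjusted p = 0.470), lowest in APAP1. The ratio of Calr to Canx counts within a library, which needs no normalization between libraries, was 3.19 and 2.89 with APAP and 1.93, 1.53 and 1.77 with saline. These ratios did not overlap (exact permutation test, two-sided, p = 0.2, the smallest that 2 against 3 libraries allow). Canx and this ratio were chosen after the values were seen.

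Among the members, Sdf2l1, Creld2 and Dnajb9 had the largest fitted changes. Sdf2l1 (ENSMUSG00000022769, chromosome 16, 17130138 to 17132383), a partner of BiP in the ER lumen, was at 25.7 and 55.6 CPM with APAP, against 15.8, 12.6 and 13.4 CPM with saline. Both APAP libraries were above all saline libraries, and APAP3 was 2.16 times as high as APAP1. It rose by a fitted 2.93-fold (log2 1.55, standard error 0.33, 95% interval 0.76 to 2.34, adjusted p = 0.0413 in edgeR's quasi-likelihood fit). The adjusted p of Sdf2l1 was 0.167 without APAP3, 0.0806 without WT1, 0.153 without WT2 and 0.0795 without WT3, and the fitted log2 change was 0.88 without APAP3 and 2.0 without APAP1.
Creld2 (ENSMUSG00000023272, chromosome 15, 88819646 to 88826681), an ER protein with EGF-like domains that is induced by ER stress, was at 52.0 and 106 CPM with APAP, against 23.2, 26.0 and 44.0 CPM with saline. The groups were apart by a narrow margin, between APAP1 and WT3. Its log2 fold change was 1.34 (standard error 0.39, 95% interval 0.42 to 2.27, adjusted p = 0.0879 by the quasi-likelihood test), and the adjusted p was 0.0209 by edgeR's likelihood ratio test and 0.0208 by DESeq2. By the quasi-likelihood test the adjusted p of Creld2 was 0.175 without WT1, 0.253 without WT2 and 0.0535 without WT3. Its fitted log2 change was 0.73 without APAP3 and 1.77 without APAP1. Dnajb9 (ENSMUSG00000014905, chromosome 12, 44205897 to 44210068), a J-domain protein that acts on BiP, was at 110 and 180 CPM with APAP, against 65.4, 64.8 and 120 CPM with saline. WT3 was higher than APAP1, while the other saline libraries lay below both APAP libraries (log2 0.80, 95% interval −0.05 to 1.65, adjusted p = 0.226 by the quasi-likelihood test). Of its 50-base words, 5.80% are shared with the transcript of Gm6568.

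Xbp1 and Herpud1 stand for the control and the degradation arm of the response. Xbp1 (ENSMUSG00000020484, chromosome 11, 5520659 to 5525893) was at 223 and 258 CPM with APAP, against 186, 150 and 176 CPM with saline. The groups did not overlap and both spreads were small, with a log2 fold change of 0.49 (95% interval −0.04 to 1.03, adjusted p = 0.231 in edgeR's quasi-likelihood fit). The counts are totals per gene and do not separate spliced from unspliced Xbp1 mRNA. Herpud1 (ENSMUSG00000031770, chromosome 8, 94386438 to 94395377), an ER membrane protein of ERAD, was at 220 and 672 CPM with APAP, against 258, 503 and 796 CPM with saline. It had the widest spread of the members, 3.06-fold between the APAP libraries and 3.09-fold among the saline libraries, and the only member with a fitted log2 fold change below 0 (−0.22, 95% interval −1.64 to 1.20, adjusted p = 0.860 from the same test). Its direction was not stable, at 0.38 without APAP1, 0.23 without WT3 and −1.25 without APAP3.

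**Figure D2:**
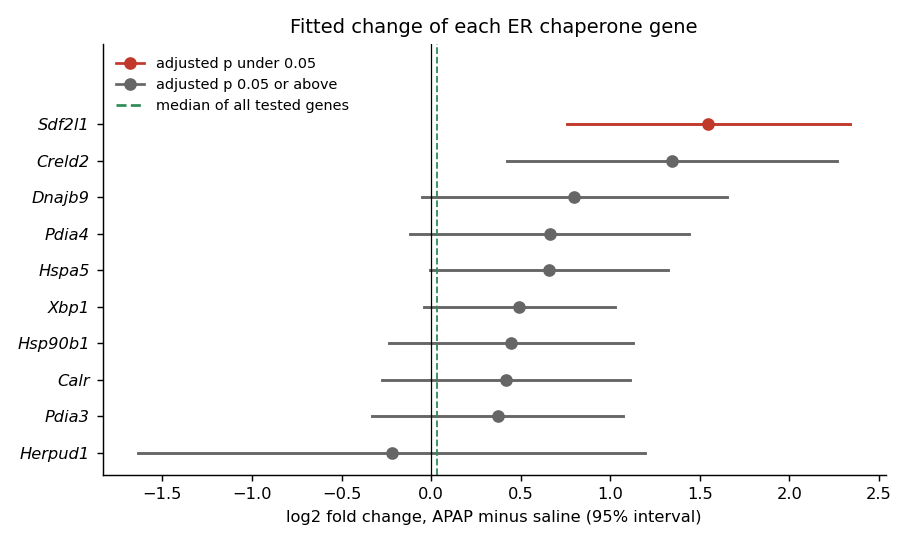
Fitted log2 fold change (x axis, APAP minus saline) of each member with its 95% interval from edgeR's quasi-likelihood fit. Sdf2l1, in red, has an adjusted p under 0.05. The intervals of Sdf2l1 and Creld2 lie above 0 and the other 8 include it. The dashed line is the median of all tested genes, 0.03.

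The APAP libraries differed from each other in most members. APAP3 was higher than APAP1 in 9 of the 10, by between 1.16-fold (Xbp1) and 3.06-fold (Herpud1), and Hspa5 alone was lower in APAP3 (0.812 of the APAP1 level). Relative to the saline mean, Hsp90b1, Pdia3, Pdia4 and Calr were between 1.02-fold and 1.11-fold in APAP1 and between 1.57-fold and 2.06-fold in APAP3. Sdf2l1 was at 1.85-fold and 4.0-fold, and Creld2 at 1.67-fold and 3.41-fold. Summed over the members, CPM was 3792 in APAP1 and 5285 in APAP3, and 3201, 3065 and 3778 in the saline libraries, of which WT3 was almost level with APAP1. Hspa5, Hsp90b1 and Calr together made up 68.0% of that sum in APAP1, 57.7% in APAP3 and between 56.8% and 61.8% in the saline libraries.
The saline libraries divided the members by direction as well. From WT1 to WT3, Hspa5 was 1.37 times, Dnajb9 1.83 times, Creld2 1.90 times and Herpud1 3.09 times as high, while Pdia3 was at 0.732, Pdia4 at 0.687 and Calr at 0.810 of the WT1 level. The median log2 fold change of the members was 0.25 without APAP3 and 0.69 without APAP1, beside medians of 0.02 and 0.00 for all tested genes in the same fits.

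**Figure D3:**
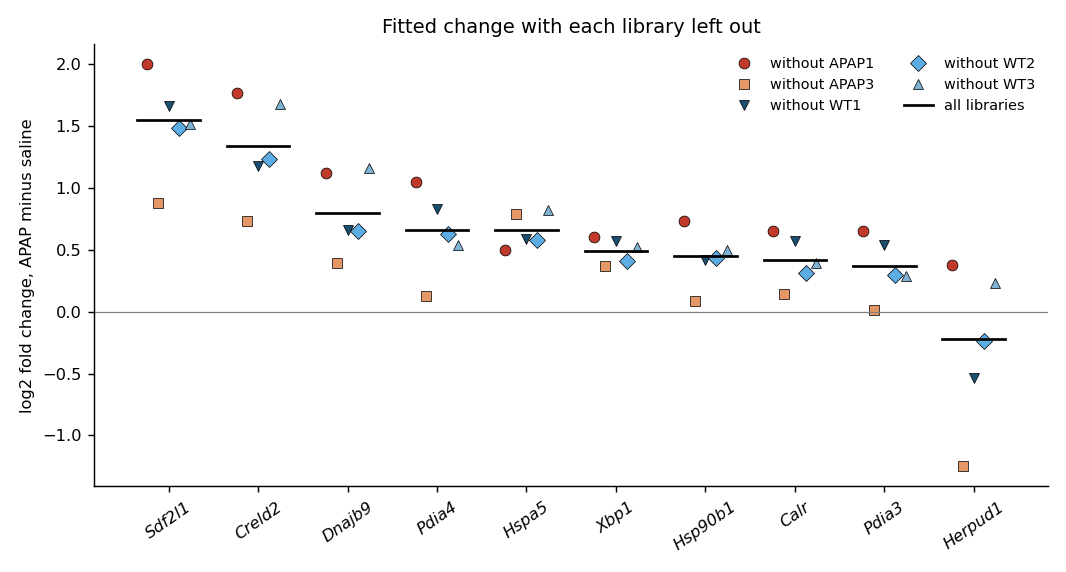
Log2 fold change (y axis, APAP minus saline) of each member fitted with all 5 libraries (black bars) and with each library left out (symbols). Leaving out APAP3 gives the lowest value in 9 members, 0.01 in Pdia3 and −1.25 in Herpud1, and leaving out APAP1 gives the lowest in Hspa5 (0.50).

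Other genes of the same pathway were read from lists of ER folding, ERAD, translocation, ER to Golgi traffic and the sensors of the response. Of 23 other genes of ER folding, 2 rose, none fell, and the median log2 fold change was 0.17. This share of calls was close to the 7.23% called among all tested genes. Fkbp11, a prolyl isomerase of the ER, rose from 2.24, 1.86 and 1.54 CPM with saline to 6.82 and 7.54 CPM with APAP (log2 1.94, standard error 0.33, adjusted p = 0.0218 in edgeR's quasi-likelihood fit). Dnajc10, a J-domain protein with disulfide reductase activity, rose from 29.0, 30.6 and 33.6 CPM to 54.2 and 54.0 CPM (log2 0.80, standard error 0.18, adjusted p = 0.0480). The APAP libraries differed from each other by no more than 1.11-fold in these genes. Hyou1, an HSP70-like nucleotide exchange factor of BiP, was at 97.1 and 178 CPM with APAP, against 74.4, 90.0 and 131 CPM with saline (log2 0.48, adjusted p = 0.448). Dnajb11, another J-domain partner of BiP, was at 90.7 and 144 CPM with APAP, against 99.4, 67.7 and 95.7 CPM with saline (log2 0.42, adjusted p = 0.420). Leaving out APAP1, APAP3 or WT2 left 0 of the 23 genes called, and leaving out WT1 or WT3 left 1.

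In the other 4 pathway lists no gene had an adjusted p under 0.05 in edgeR's quasi-likelihood test. Among all 13734 tested genes, 3413 had an unadjusted p under 0.05 in that test, DESeq2 called 2093 and the likelihood ratio test 1835. The counts below are to be read beside these. Of 19 ERAD genes, 3 had an unadjusted p under 0.05 and DESeq2 called 3, the likelihood ratio test 2, with a median log2 fold change of −0.03. Derl3, an ERAD channel component, was at 1.59 and 10.01 CPM with APAP, against 0.986, 0.598 and 0.267 CPM with saline (log2 3.25, adjusted p = 0.0701). Edem1, a mannosidase-like ERAD factor, was at 77.5 and 135 CPM with APAP, against 201, 227 and 184 CPM with saline (log2 −0.94, adjusted p = 0.112). Rnf5 had a log2 fold change of −1.07 (adjusted p = 0.0846 by the quasi-likelihood test). Derl3, Edem1 and Rnf5 were named after their values were seen. The groups did not overlap in any of them, with APAP above saline in Derl3 and below it in Edem1 and Rnf5. Derl3 had only 11, 9 and 4 reads in WT1, WT2 and WT3. Of the 19 genes, 3 were apart with APAP higher and 7 with APAP lower, against 24% and 20.1% of all tested genes.
Of 21 genes of translocation, signal cleavage and N-glycan transfer, 1 had an unadjusted p under 0.05, neither DESeq2 nor the likelihood ratio test called any, and the log2 fold changes stayed between −0.47 and 0.52 (median 0.06). Of 14 tested genes of ER to Golgi traffic and retrieval, 3 had an unadjusted p under 0.05 and DESeq2 called 2, with a median of −0.14. Of 14 sensors and regulators, 5 had an unadjusted p under 0.05, DESeq2 and the likelihood ratio test each called 3, and the median was 0.64.

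The sensors themselves are given although none passed, and were chosen after their values were seen. Ern1, which encodes IRE1, was at 47.8 and 70.3 CPM with APAP, against 63.5, 90.6 and 81.7 CPM with saline (log2 −0.41, adjusted p = 0.394). Atf6 was at 56.0 and 116 CPM with APAP, against a mean of 136 ± 53.8 CPM with saline (SD, n = 3, log2 −0.67, adjusted p = 0.388). Eif2ak3, which encodes PERK, was at 21.2 and 50.4 CPM with APAP, against 12.7, 16.8 and 26.9 CPM with saline (log2 0.93, adjusted p = 0.248). All 3 overlapped between the groups. Downstream of PERK, Atf4 was at 171 and 173 CPM with APAP, against 108, 88.6 and 113 CPM with saline, apart but with an adjusted p of 0.0904 for a log2 fold change of 0.73.

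**Figure D4:**
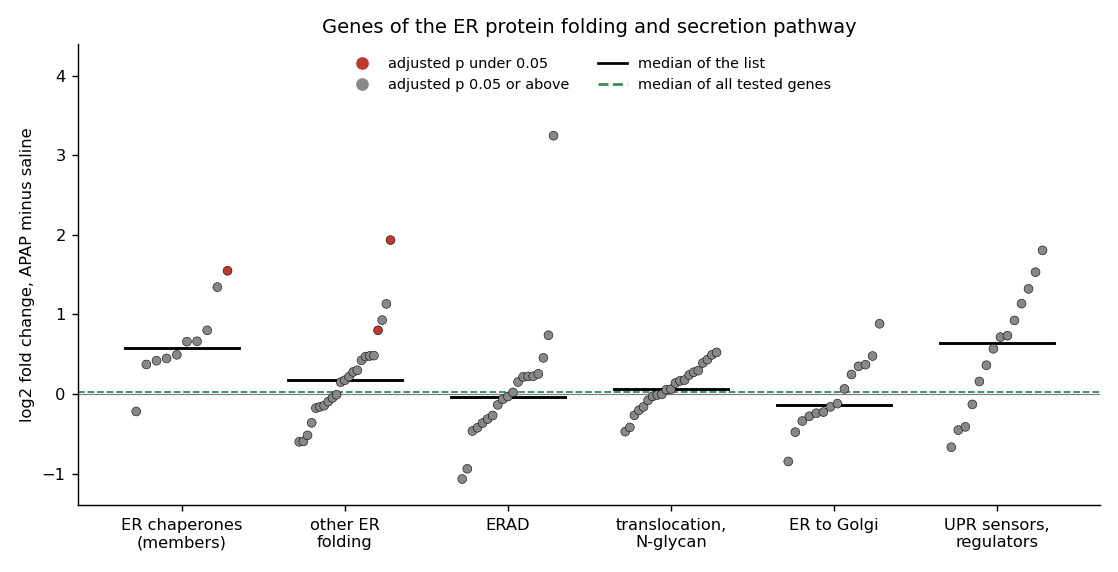
Log2 fold change (y axis, APAP minus saline) of the members and of 5 lists of the same pathway. Each point is a gene, black bars are list medians and red points have an adjusted p under 0.05. The members (median 0.58) and the sensors and regulators (0.64) lie above the median of all tested genes, while ERAD (−0.03), translocation (0.06) and ER to Golgi traffic (−0.14) lie near it. The other ER folding genes have a median of 0.17.

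ERSE was read over all genes as well. It was found in the window of 37 genes, 4 of them members and 4 of them on the list of other ER folding genes, of which 19 of the 23 had a window. Of these 37, 20 were tested, 11 of them had a log2 fold change above 0 (median 0.43), and the only p-values under 0.05 were 5 before adjustment. Over all 13734 tested genes, 3413 had such an unadjusted p. Outside the members, 16 were tested, with a median log2 fold change of −0.04, 7 of them above 0 and 9 below. Canx and Dnajc3 hold the element and had log2 fold changes of −0.36 and −0.05, beside 0.48 for Pdia6 and 0.74 for the ubiquitin ligase gene Syvn1, which hold it too. At 1.5-fold and an unadjusted P under 0.05 by the quasi-likelihood test, 3 of the 16 were higher and 1 lower, against 1696 and 1532 of all 13734 tested genes. The higher ones were Derl3 (log2 3.25), Spats2l (2.54) and Alg12 (0.92), and the lower one was Acnat2 (−1.075). All genes named in this paragraph were chosen after their values were seen.

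The closest relatives of BiP and GRP94 lie in the cytosol and the mitochondria. Of 12 such genes, 4 rose (Hspa1a, Hspa1b, Hsph1 and Hsp90aa1) and none fell, against 3.7% and 3.53% of all tested genes. Their median log2 fold change was 0.61. Hspa1a, the stress-inducible cytosolic HSP70, rose from 0.359, 0.996 and 0.534 CPM with saline to 354 and 499 CPM with APAP (log2 9.35, standard error 0.46, adjusted p = 5.83e-04 in edgeR's quasi-likelihood fit). Hspa1b, a near-identical copy with which it can exchange reads, rose from 3.76, 3.72 and 9.42 CPM to 454 and 769 CPM (log2 6.75, adjusted p = 0.00224). Hsph1, a cytosolic nucleotide exchange factor of HSP70, rose from 47.8, 55.8 and 77.1 CPM to 358 and 632 CPM (log2 3.04, adjusted p = 0.00607). The constitutive Hspa8 had 1.76-fold higher fitted levels with APAP (adjusted p = 0.157) and Hsp90ab1 2.14-fold (adjusted p = 0.118), and neither passed the test.
Set within each library, Hspa1a had 0.308 and 0.533 of the reads of Hspa5 with APAP and between 6.09e-04 and 0.00168 with saline. Hsp90aa1, the inducible cytosolic HSP90, had 0.652 and 0.771 of the reads of Hsp90b1 with APAP and 0.0937, 0.103 and 0.165 with saline. Both ratios were apart between the groups (exact permutation test, two-sided, p = 0.2, the smallest possible here). The ratio of Hspa8 to Hspa5 overlapped, at 1.31 and 1.70 with APAP and 1.28, 1.27 and 1.41 with saline (exact p = 0.4). In all, 9 such ratios were computed, chosen after the values were seen, and 5 reached the smallest p (adjusted exact p = 0.36 over the 9).

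**Figure D5:**
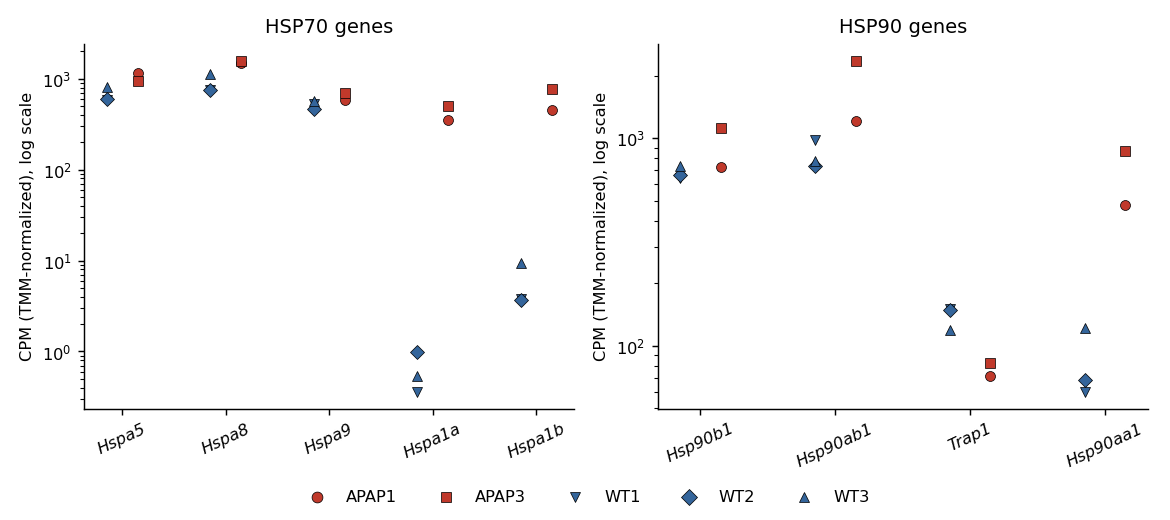
TMM-normalized CPM (y axis, log scale) of HSP70 genes (left) and HSP90 genes (right) in each library. Hspa5 and Hsp90b1, the ER members, differ little between the groups beside Hspa1a, Hspa1b and Hsp90aa1, whose saline libraries lie between 0.359 and 121 CPM and whose APAP libraries lie between 354 and 868 CPM.

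The profile of Hspa5 over the 5 libraries was compared with those of 7858 other genes at a mean of at least 10 CPM, by the Euclidean distance of centred log2 CPM. The closest were Eef1e1 (distance 0.113), Slmo2 (0.129), Akirin1 (0.130), Ddx27 (0.139) and Naa25 (0.151), against a median of 1.09. In all 5, as in Hspa5, APAP1 was highest, followed by APAP3 and then WT3. None of the other members was among them. Xbp1 was the closest member (distance 0.551, within the nearest 8.49% of these genes) and Herpud1 the farthest (1.93, at 86.5%).

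Markers of the cell types of liver were read beside these values. Hepatocyte markers summed to 81260 and 123400 CPM with APAP and to between 127500 and 171700 CPM with saline, lowest in APAP1 and without overlap. Of 9 tested genes, 1 was called lower with APAP, and the median log2 fold change was −0.70. At 1.5-fold and an unadjusted p under 0.05 by the quasi-likelihood test, 4 were lower, against 1532 of all 13734 tested genes. In 6 both APAP libraries lay below all saline libraries and in 1 above, against 20.1% and 24% of all tested genes. Neutrophil markers summed to 118 and 75.6 CPM with APAP and to between 4.03 and 8.28 CPM with saline, with 7 of 7 tested genes higher. Cholangiocyte markers summed to 592 and 525 CPM against 175 to 212 CPM, with 2 of 6 higher. Monocyte (1514 and 2111 against 1250 to 1693 CPM, 3 of 8 higher), Kupffer cell (324 and 556 against 344 to 500.2 CPM, none of 10, 1 with an unadjusted p under 0.05), endothelial (189 and 278 against 186 to 304 CPM, none of 10, 1 unadjusted) and stellate cell sums (357 and 464 against 415 to 462, 1 of 10 higher) overlapped between the groups. The part of these cell types in the members' values was not tested. Among cells with an abundant ER, B and plasma cell markers summed to 68.7 and 76.3 CPM with APAP and to 36.4, 225 and 36.8 CPM with saline, with none of 8 called by edgeR and 0 at an unadjusted p under 0.05. Pancreatic acinar markers summed to 5.17 and 3.28 CPM with APAP and to between 6.84 and 10.2 CPM with saline. Of the 2 tested, 1 was lower with APAP, Cela2a, which was at 0 in both APAP libraries and at 2.69, 1.26 and 7.35 CPM with saline, and 7 of the 10, among them Prss2, Pnlip and Cpa1, were at 0 in all 5. Ctrb1, which was not tested, went the other way, at 2.41 CPM in APAP1 and at 0 in every other library.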

How the data were processed

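RNA-Seq libraries of mouse liver were made by the study with a SMARTER mRNA-Seq kit and sequenced on an Illumina NovaSeq. The study's methods credit the read counts to HISAT2 and the FPKM values to StringTie, and the submitters' processing notes name the builds GRCm38 and mm10. The annotation release and strand setting are not given in the sources used here. The authors deposited raw read counts per gene and FPKM values in a single table, and the counts were used. The 5 FPKM columns were not used, since counts fit the test. APAP1 and APAP3 were matched to samples by name, and WT1 to WT3 to the saline group without a sample number.

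Counts were tested in edgeR 4.0.16 (R 4.3.3) with TMM factors, filterByExpr (minimum count 10, minimum total 15) and the quasi-likelihood F-test on group, with Benjamini-Hochberg adjustment over 13734 genes and a threshold of 0.05. CPM uses TMM-scaled library sizes. The standard error is the absolute log2 fold change divided by the square root of F, and the 95% interval uses the t distribution with the total degrees of freedom of the fit. The common dispersion was 0.111. A count of 3 reads corresponds to between 0.176 and 0.269 CPM, a floor that covers counting error only. Within a group, any pair of libraries differed by more than counting noise, with a chi-square of 43.2 to 92.2 times its degrees of freedom. Scripts were tested on simulated data. Alternatives were other scalings, the likelihood ratio test, DESeq2 1.42.0, other filters and each library left out. Exact permutation tests of ratios were run in Python 3.11.15. Promoter windows came from RefSeq and exon lengths from GENCODE M21.

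The members and gene lists were chosen with earlier results of these data known. Named genes are all members, called regulators, the 3 genes with the smallest p among those called in each other list, Hspa8, Hsp90ab1, Hyou1, Dnajb11 and the 5 genes nearest Hspa5. Others are marked in the text or were chosen after their values were seen.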

Additional observations from a re-analysis of the deposited data

How the results depend on the processing

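Of 120 values of the 10 members under 12 alternatives, 108 kept their direction and their side of the threshold. Herpud1 reversed to 0.08 with library size only, 0.38 without APAP1 and 0.23 without WT3, and ranged down to −1.25 without APAP3. Sdf2l1 stayed above 0 throughout and had an adjusted p under 0.05 in 8 of the 12 (range 0.00146 to 0.167). The cause of these changes was not tested. Against 1 member called, library size only gave 3 (Sdf2l1, Creld2 and Xbp1), the likelihood ratio test 2, DESeq2 2, no filter 2 and the methods' thresholds 2, and leaving out a library 0 to 1. At the methods' thresholds, 2 members became 4 with upper-quartile factors and 9 with library size only, and 2 to 4 with a saline library left out. The share of all tested genes at these thresholds was not counted for the alternatives. With library size only, 1339 of all tested genes were called after adjustment, and their median log2 fold change moved from 0.03 to 0.42. The members' median lay 0.55 above that of all tested genes both in that fit and in the main fit. Over all genes, 993 calls became 1835 with the likelihood ratio test and 2093 with DESeq2, and 235 without APAP1, 401 without APAP3, 510 without WT1, 165 without WT2 and 922 without WT3. Calls in ER folding (2) were 1 with DESeq2 size factors, 1 without a filter and 0 to 1 with a library left out. Calls in ERAD (0) were 2 with library size only, 2 with the likelihood ratio test, 3 with DESeq2, 1 without a filter and 0 to 1 with a library left out. Translocation (0) had 1 with library size only, and ER to Golgi traffic (0) had 1 with library size only and 2 with DESeq2. Sensors and regulators (0) had 3 with library size only, 3 with the likelihood ratio test, 3 with DESeq2, 1 without a filter and 1 with at least 10 counts in every library. Cytosolic and mitochondrial relatives (4) had 7 with DESeq2 and 2 to 4 with a library left out. Leaving out an APAP library leaves 1 in that group, which is assumed to vary like the saline libraries. No paired analysis was possible because the saline columns carry no replicate number of the labels.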
